A study of Homo sapiens with 6 samples.

Results

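The genes described here encode selenoproteins and the enzymes and factors that put selenocysteine into them. They are 10 genes given by symbol, SELENOK, SELENOS, SELENOT, SELENOW, SELENOF, SELENOM, SELENOP, SEPHS2, SEPSECS and SECISBP2, among 35019 identifiers in the expression table. All 10 were found, each once, and 9 had enough reads to be tested. Expression was measured by RNA sequencing in BEAS-2B, an established line of human bronchial epithelial cells, in 3 libraries treated with RSL3 and 3 treated with RSL3 and indirubin, written RSL3+ID. All 6 libraries had therefore received RSL3, at 2 µM for 24 h, and in the second group indirubin preceded it by 2 h. The protocols give indirubin as 7.5 to 30 µM without saying which dose these libraries had. Untreated cells and cells with indirubin alone were not analysed here, so an effect of indirubin itself and a changed response to RSL3 cannot be told apart. Nothing in the labels says that libraries of a group were separate cultures, so the spread between them may be technical.

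Selenoproteins contain selenocysteine, an amino acid with selenium in place of the sulphur of cysteine. It is encoded by UGA, which in other messages is a stop codon. SEPHS2 makes selenophosphate, SEPSECS uses it to turn phosphoseryl-tRNA into selenocysteinyl-tRNA, and SECISBP2 binds the SECIS hairpin behind the coding sequence that marks the UGA for this reading. The family is tied to ferroptosis because GPX4, the lipid peroxidase that RSL3 inhibits, is itself a selenoprotein. SELENOK, SELENOS, SELENOT, SELENOF and SELENOM reside in the endoplasmic reticulum (ER), SELENOW is a small cytosolic protein, and SELENOP is a secreted selenium carrier made mainly by liver.

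GENCODE 29 annotates a selenocysteine codon in 8 of the 10 genes. The coding context of one such codon per gene is shown for the 7 of these that were tested, because this codon is what makes the message depend on SEPHS2, SEPSECS and SECISBP2. Each runs 5′ to 3′ on the coding strand of GRCh38, with the selenocysteine codon in capitals.
SELENOK: atggctggtggaTGAggaagg
SELENOS: tcatctggcggaTGAggc
SELENOT: atttgtgtttccTGAggttataggcgg
SELENOW: tattgtggcgctTGAggctacaagtcc
SELENOF: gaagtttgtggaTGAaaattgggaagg
SELENOM: acctgcgggggaTGAcagctgaaccgc
SEPHS2: ggcatgaagggcTGAggctgcaaggtc
In SELENOT, SELENOW and SELENOM a cysteine codon (TGT or TGC) lies 3 codons before the capitals, the arrangement of a redox-active pair. In SELENOF a cysteine codon (TGT) lies 2 codons before them. In SELENOK the selenocysteine is codon 92 of 94 and in SELENOS codon 188 of 189, so only 2 and 1 codons follow. It is codon 49 of 195 in SELENOT, 13 of 87 in SELENOW, 96 of 165 in SELENOF, 48 of 145 in SELENOM and 60 of 448 in SEPHS2. SELENOP has 10 annotated selenocysteine codons, at positions from 59 to 378 of 381.

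**Figure D1:**
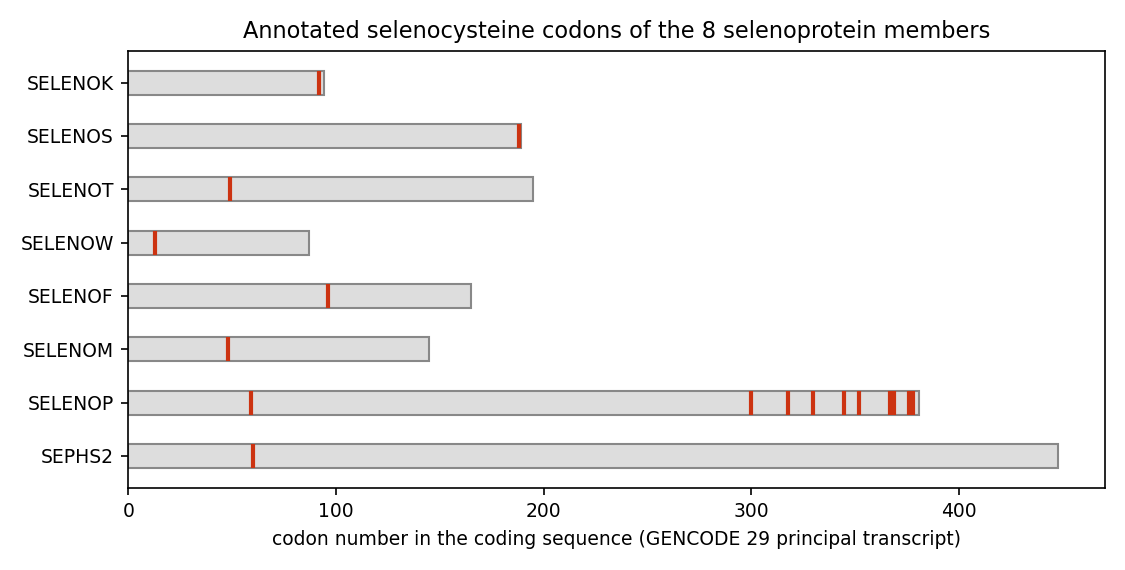
Each grey bar is the coding sequence of a selenoprotein gene in codons along the x axis, and each red mark an annotated selenocysteine codon. SELENOK and SELENOS carry theirs at the end, at codon 92 of 94 and 188 of 189, while SELENOP carries 10.

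The reads on listed genes numbered 15206183 to 18506637 per library, so that a gene with no read could still have had up to 3, which is 2.68 to 3.17 normalised counts. On the second principal component of the 1000 most variable genes (26.4% of their variance), RSL3+ID library 2 lay at −31.31 and libraries 1 and 3 of that group at 15.40 and 1.37. Of 7 epithelial markers, KRT8, KRT18, KRT17, KRT19 and EPCAM were present, and KRT5 and CDH1 had means under 10. The summed level of the 7 was 41053 to 44395 normalised counts with RSL3 and 33875 to 36850 with RSL3+ID. Of the 5 tested with limma, 1 passed as lower (adjusted p = 0.0361), where 0.832% of all tested genes did. EPCAM alone was higher. The sums of 3 mesenchymal markers (VIM, CDH2 and FN1) were 15758 to 19083 with RSL3 and 9531 to 21131 with RSL3+ID. Each of the 3 was lowest in RSL3+ID library 2. VIM had 4662 normalised counts there, against 7918 and 10206 in libraries 1 and 3 of that group. Of 5 leukocyte markers, PTPRC, CD68 and LYZ were under a mean of 10 and CD3E had no read, whereas CD14 was present. The sums were 414.0 to 565.0 with RSL3 and 526.3 to 840.5 with RSL3+ID. The sums of 6 fibroblast markers ranged from 1546 to 1901 and from 1063 to 1974, those of 4 endothelial markers from 116.7 to 149.8 and from 68.4 to 204.9, and those of 4 alveolar and club cell markers from 32.0 to 52.7 and from 59.5 to 82.4. RSL3+ID library 1 alone held 208 reads of COL3A1, a fibroblast collagen, and 37 of CDH1, where the other libraries had at most 6 and 7. The part of these differences in the results below was not tested. In bulk RNA, fewer cells of a kind and less RNA per cell cannot be told apart.

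The question put to these genes is whether their transcript levels differ between cells given RSL3 with and without indirubin. None of the 9 tested genes passed an adjusted p of 0.05 with limma, where 271 of 14188 tested genes did, a background of 1.91% (1.08% higher and 0.832% lower in RSL3+ID). SELENOK came closest, with a 1.51-fold higher mean in RSL3+ID and an adjusted p of 0.0634. SELENOT followed at 1.39-fold and an adjusted p of 0.106. At an unadjusted p under 0.05 there were 2 of the 9, SELENOK and SELENOT, both higher, against 19.3% of all tested genes (9.63% higher and 9.71% lower). Limma with voom precision weights on the recovered reads called 0 of the 9, and 0.959% of all genes as higher. The authors' deposited table has headers in the form of DESeq2 output, and the processing notes name that tool. It lists both genes as changed, SELENOK at 0.60 (log2 fold change, adjusted p = 0.0116) and SELENOT at 0.49 (adjusted p = 0.0469). That table holds 895 genes, or 3.88% of the 23059 identifiers with at least 1 read. This base is larger than the 14188 genes of the limma and voom shares, so the percentages are not directly comparable.

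The estimate was positive for 8 of the 9 genes, against 48.5% of all tested genes, and negative for SECISBP2. The median log2 fold change of the 9 was 0.33, against −0.02 over all tested genes. Scaling to total counts left 7 positive estimates, moved the median of all genes to −0.11 and turned SELENOF negative. Removing a length and GC trend also left 7, as did omitting any single RSL3+ID library. The median of the 9 was lowest, at 0.20, when RSL3+ID library 2 was omitted. It was 0.22 after removal of the trend and 0.23 with total count scaling. Upper-quartile scaling raised it to 0.39, and omitting RSL3 library 3 raised it to 0.44. The 9 passed the filter on their mean over all libraries, and SELENOP did not. 3 of the 9, SELENOK, SELENOT and SELENOW, had all RSL3+ID libraries above all RSL3 libraries, where 12.8% of tested genes did. None had all of them below, where 12.6% did.

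**Figure D2:**
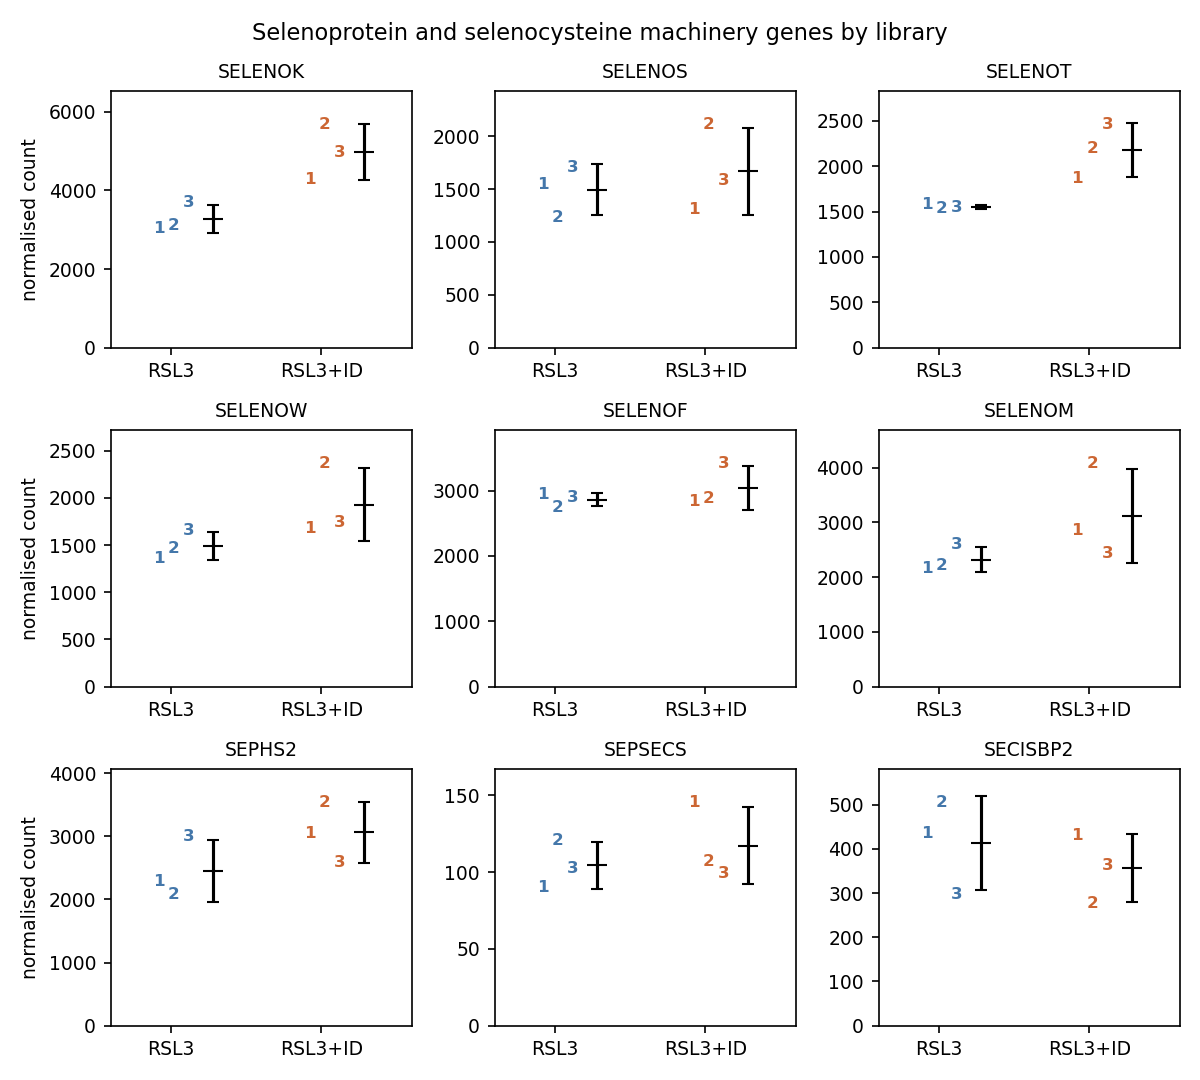
Each panel plots the normalised count of a tested gene (y axis, from 0) in the 3 RSL3 libraries (blue) and the 3 RSL3+ID libraries (orange), with numerals naming the library and black bars giving the mean ± SD. The groups are apart in SELENOK, SELENOT and SELENOW and overlap in the other 6, and RSL3+ID library 2 is the highest library in 5 panels.

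Among the ER selenoproteins SELENOK, a small membrane protein that takes part in protein palmitoylation and in ER-associated degradation, was the most abundant in reads. Its normalised counts (reads divided by the authors' size factor) were 3029, 3118 and 3693 with RSL3 and 4280.1, 5687 and 4953 with RSL3+ID. Every RSL3+ID library lay above every RSL3 library. The means were 3280.2 ± 360.5 and 4974 ± 704 (SD, n = 3 per group), and the limma estimate was a log2 fold change of 0.60 (SE 0.15, 95% interval 0.27 to 0.92). This difference was larger than the spread within either group, but its adjusted p of 0.0634 missed the threshold. It passed without RSL3+ID library 2 (log2 fold change 0.49, adjusted p = 0.0199), in a fit that called 9.34% of all genes, 5.23% as higher. On GRCh38, SELENOK (ENSG00000113811) is a protein-coding gene on the minus strand of chromosome 3, from 53884410 to 53891988, and its selenocysteine codon is in a coding exon at 53885831 to 53885833.

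SELENOT, a thioredoxin-like ER membrane protein, had 1579, 1539 and 1542 normalised counts with RSL3, a narrow range. With RSL3+ID it had 1869, 2192 and 2465, again with no overlap between groups. The estimate was a log2 fold change of 0.48 (SE 0.15, 95% interval 0.16 to 0.79, limma adjusted p = 0.106). Without RSL3+ID library 2 it was 0.47, with an adjusted p of 0.0433, in the fit that called 9.34% of all genes. SELENOT (ENSG00000198843) lies on the plus strand of chromosome 3, from 150602875 to 150630445, and shares 61 exon bases with SERP1, an ER stress-associated gene on the other strand, so a few of its reads may belong to that gene. SERP1 had a mean of 6964 normalised counts and a log2 fold change of 0.31 (limma adjusted p = 0.204).

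SELENOM (ENSG00000198832, minus strand of chromosome 22, 31104772 to 31120069), a thioredoxin-like protein of the ER lumen, had 2162, 2214 and 2594 normalised counts with RSL3 and 2849, 4086 and 2428 with RSL3+ID. Library 2 of the second group was far above the rest, and library 3 fell within the RSL3 range. The log2 fold change was 0.40 (SE 0.18, 95% interval −0.01 to 0.80, limma adjusted p = 0.265), and 0.18 without RSL3+ID library 2. SELENOS (ENSG00000131871, minus strand of chromosome 15, 101270817 to 101277500), a partner of the ER-associated degradation machinery and of the ATPase VCP, had 1545, 1233 and 1707 with RSL3 and 1307, 2114 and 1585 with RSL3+ID. The groups overlapped fully apart from library 2. Its log2 fold change was 0.14 (SE 0.19, 95% interval −0.27 to 0.56, limma adjusted p = 0.725), and it turned to −0.04 without that library. SELENOF (ENSG00000183291, minus strand of chromosome 1, 86862445 to 86914424), which binds the glycoprotein folding sensor UGGT, had 2933, 2744 and 2892 with RSL3 and 2825, 2874 and 3421 with RSL3+ID. These values overlapped, and the log2 fold change of 0.08 had a 95% interval from −0.21 to 0.38 (limma adjusted p = 0.779).

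SELENOW (ENSG00000178980, plus strand of chromosome 19, 47778572 to 47784686), a small thioredoxin-fold protein of the cytosol, had 1358, 1460 and 1654 normalised counts with RSL3 and 1675, 2370 and 1740 with RSL3+ID. The groups did not overlap, but RSL3+ID library 1 exceeded RSL3 library 3 only narrowly. The log2 fold change was 0.36 (SE 0.17, 95% interval −0.002 to 0.72, limma adjusted p = 0.262) and 0.20 without RSL3+ID library 2. SELENOP (ENSG00000250722, minus strand of chromosome 5, 42799880 to 42887392) had 0, 0 and 1 read with RSL3, and 2, 2 and 4 reads with RSL3+ID. These are at or about the limit of 3 reads, and no fold change is given. Its exons also share 1452 bases with CCDC152 on the other strand, which had a mean of 19.4 normalised counts, so the few reads cannot be assigned with certainty.

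Of the 3 machinery genes among the 10, SEPHS2 (ENSG00000179918, minus strand of chromosome 16, 30443631 to 30446181), a selenoprotein itself, had the most reads. It had 2280, 2072 and 3005 normalised counts with RSL3 and 3051, 3543 and 2589 with RSL3+ID. RSL3 library 3 lay above RSL3+ID library 3, so the groups overlapped. The log2 fold change was 0.33 (SE 0.17, 95% interval −0.05 to 0.70, limma adjusted p = 0.326), and 0.21 without RSL3 library 2 or without RSL3+ID library 2. SEPSECS (ENSG00000109618, minus strand of chromosome 4, 25120014 to 25160442) had 90.2, 120.9 and 102.2 with RSL3 and 145.7, 107.0 and 99.2 with RSL3+ID. Only RSL3+ID library 1 was outside the RSL3 range, and the log2 fold change was 0.16 (SE 0.27, 95% interval −0.43 to 0.75, limma adjusted p = 0.798). It was −0.01 without that library. SECISBP2 (ENSG00000187742, plus strand of chromosome 9, 89318506 to 89359662) had 436.0, 506.1 and 297.4 with RSL3 and 430.9, 276.5 and 363.0 with RSL3+ID. The spread within each group was larger than the difference of means, 413.2 ± 106.2 against 356.8 ± 77.3 (SD, n = 3 per group), and the log2 fold change was −0.20 (SE 0.24, 95% interval −0.72 to 0.32, limma adjusted p = 0.691). It was −0.03 if RSL3+ID library 2 was omitted, −0.04 if RSL3 library 2 was, −0.05 with the length and GC trend removed, −0.35 if RSL3+ID library 1 was omitted and −0.42 if RSL3 library 3 was.

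Levels were compared between genes after division by the length of the principal transcript. In the RSL3 libraries SELENOM led the 9 genes at 2204 ± 224 normalised counts per kilobase (SD, n = 3), followed by SELENOK at 2009 ± 221, SELENOW at 1679 ± 169 and SELENOF at 1604 ± 55.8. The mean ± SD of each of these 4 overlapped that of the next. SELENOS at 1039 ± 167 and SEPHS2 at 961.3 ± 192 formed the next pair and also overlapped, SELENOT stood below them at 447.7 ± 6.42, and SECISBP2 at 119.3 ± 30.7 and SEPSECS at 19.0 ± 2.81 came last. With RSL3+ID, SELENOK at 3046 ± 431 and SELENOM at 2961 ± 817 overlapped, followed by SELENOW at 2171 ± 432, whose mean ± SD overlapped that of SELENOM. GPX1, GPX4 and TXNRD1 were above all 9 genes in the RSL3 libraries, at 5669 ± 458, 5369 ± 509 and 4843 ± 237 normalised counts per kilobase. Whether a message is intact or translated is not measured by these levels.

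The remaining selenoprotein genes showed no common direction. Of 17, 12 were tested and none passed with limma or with voom. At an unadjusted p under 0.05 there were 4 of the 12, against 19.3% of all tested genes. The estimate was positive for 7, and the median log2 fold change was 0.02. GPX4 had 4552, 4794 and 5456 normalised counts with RSL3 and 5895, 7572 and 5682 with RSL3+ID. All RSL3+ID values were above the RSL3 values, with a log2 fold change of 0.36 (SE 0.15, limma adjusted p = 0.204). TXNRD1 and TXNRD2, the cytosolic and mitochondrial thioredoxin reductases, lay the other way with log2 fold changes of −0.42 and −0.46 (limma adjusted p = 0.174 and 0.225). Without RSL3+ID library 2, GPX4 was at 0.23 and TXNRD1 at −0.24, while TXNRD2 passed (log2 fold change −0.58, adjusted p = 0.0489). That fit called 9.34% of all genes. TXNRD2 was at −0.28 without RSL3+ID library 1. DIO2, a deiodinase that activates thyroid hormone, had the lowest estimate, −1.44 (SE 0.69, limma adjusted p = 0.275), at 44.7, 37.2 and 9.29 normalised counts with RSL3 and 15.8, 6.94 and 5.78 with RSL3+ID. Its groups overlapped, since RSL3 library 3 was below RSL3+ID library 1, and on the deposited log2 scale its estimate was −0.39. GPX2, GPX6, DIO1, DIO3 and SELENOV were below the filter.

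**Figure D3:**
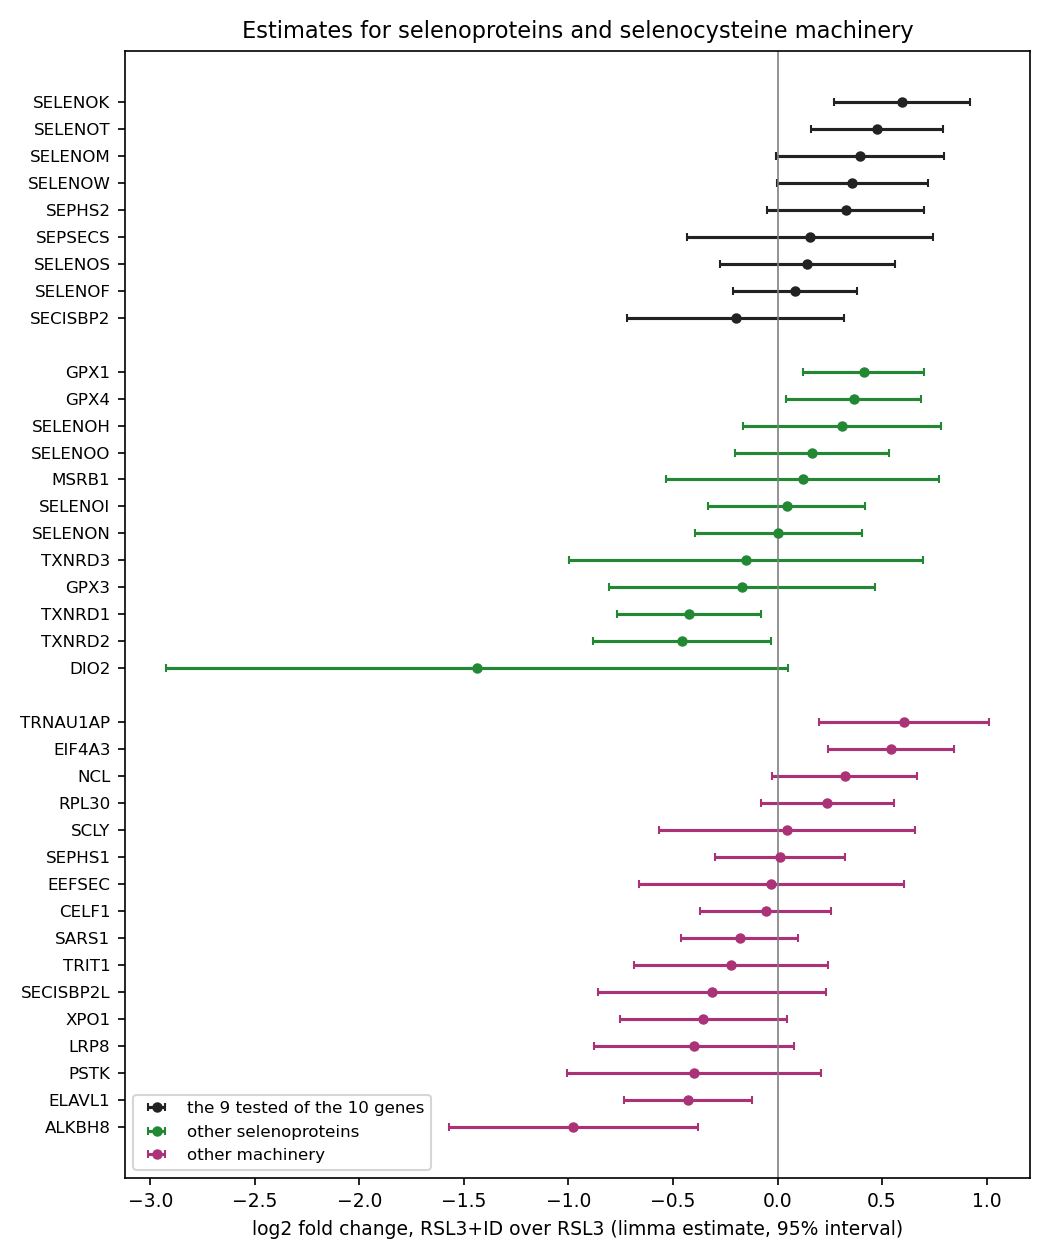
Points are limma estimates of the log2 fold change of RSL3+ID over RSL3 (x axis) and bars their 95% intervals, for the 9 tested genes (black), 12 other selenoproteins (green) and 16 other genes of selenocysteine synthesis and decoding (purple). Of the 9 genes, SELENOK and SELENOT have the highest estimates, 0.60 and 0.48, with intervals above 0. TRNAU1AP at 0.60 and EIF4A3 at 0.54 lie as high, and GPX4 and TXNRD1 lie on opposite sides of 0.

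Among 16 other genes of selenocysteine synthesis, decoding and selenium supply, all tested, none passed with limma or with voom. At an unadjusted p under 0.05 there were 4 of the 16, against 19.3% of all tested genes. The estimate was positive for 6, and the median log2 fold change was −0.12. EIF4A3, an RNA helicase of the exon junction complex that can bind SECIS elements of some selenoprotein messages, had 17949, 16932 and 15797 normalised counts with RSL3 and 27477, 20545 and 26327 with RSL3+ID. The groups did not overlap, with a log2 fold change of 0.54 (SE 0.14, limma adjusted p = 0.0686), and the authors' deposited table lists it with an adjusted p of 0.0161. ALKBH8, a methyltransferase that modifies the anticodon of the selenocysteine tRNA, had 202.8, 363.6 and 245.7 with RSL3 and 165.8, 103.1 and 137.7 with RSL3+ID. All RSL3+ID values were lower, with a log2 fold change of −0.98 (SE 0.27, limma adjusted p = 0.0837), and it is in the authors' deposited table with an adjusted p of 0.0182. TRNAU1AP, a protein associated with this tRNA, had a log2 fold change of 0.60 (SE 0.19, limma adjusted p = 0.110). Of the genes closest in function to the 3 machinery genes above, PSTK, the kinase that makes the substrate of SEPSECS, had −0.40, SECISBP2L, a relative of SECISBP2, −0.31, EEFSEC, the elongation factor that delivers the tRNA, −0.03, and SEPHS1, a relative of SEPHS2, 0.01. Their limma adjusted p-values were 0.463, 0.528, 0.967 and 0.975. With 1 library left out, PSTK ran from −0.60 (without RSL3 library 1) to −0.24 (without RSL3 library 3), and was −0.26 without RSL3+ID library 3. SECISBP2L ran from −0.56 (without RSL3 library 3) to −0.03 (without RSL3 library 2). Without RSL3+ID library 2, 3 of the 16 passed with limma, all higher, in a fit that called 9.34% of all genes, 5.23% as higher. EIF4A3 and TRNAU1AP were among them (log2 fold changes 0.67 and 0.69, adjusted p = 0.000487 and 0.0225). On the deposited log2 scale, which compresses low values, ALKBH8 was at −0.63 and PSTK at −0.23.

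Of 13 genes for proteins that work with SELENOK, SELENOS or SELENOF in the ER, none passed with limma or with voom. At an unadjusted p under 0.05 there were 3 of the 13, against 19.3% of all tested genes, and the median log2 fold change was 0.01. ZDHHC6, the palmitoyltransferase that partners SELENOK, had 686.2, 577.4 and 723.8 normalised counts with RSL3 and 890.2, 997.1 and 914.6 with RSL3+ID. All RSL3+ID values were above the RSL3 values, as in 12.8% of tested genes, with a log2 fold change of 0.50 (SE 0.16, limma adjusted p = 0.116). DERL1, a channel component of ER-associated degradation, had a log2 fold change of 0.31 (limma adjusted p = 0.244). UBXN8, which tethers VCP to the ER, had −0.60 (SE 0.17, limma adjusted p = 0.0816), and the authors' deposited table lists it at −0.61 with an adjusted p of 0.0260. It passed without RSL3+ID library 2 (adjusted p = 0.0415), in the fit that called 9.34% of all genes.

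Across the 6 libraries the selenoprotein genes did not all move alike. RSL3+ID library 2 was the highest library for 5 of the 9 genes (SELENOK, SELENOS, SELENOW, SELENOM and SEPHS2) and the lowest for SECISBP2. Pearson correlations of log2 levels between pairs of the 9, over 6 libraries that share the treatment difference and their depth, ran from −0.92 (SELENOS with SECISBP2) to 0.95 (SELENOW with SELENOM). SECISBP2 had a negative correlation with each of the 7 tested selenoprotein genes, from −0.92 (SELENOS) to −0.23 (SELENOF). How many of all tested genes correlate negatively with SECISBP2 was not counted, so this is no trait of the set. SECISBP2 has 9813 exon bases, and the part of length in these correlations was not tested. The tested genes most like SELENOK over the 6 libraries were PFDN5, a prefoldin subunit, FAU, a ubiquitin-like fusion of a ribosomal protein, and TMEM256, with Pearson correlations of 0.9988, 0.9984 and 0.9961.

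Libraries also differed in how all genes related to length, with the lowest value in RSL3+ID library 2. Each gene's departure from its own average was set against exon length across genes. The Spearman correlation was 0.168, 0.288 and −0.011 for RSL3 libraries 1 to 3, and −0.016, −0.217 and −0.190 for RSL3+ID libraries 1 to 3. With GC content in place of length it was 0.006, −0.248 and 0.231 for RSL3 libraries 1 to 3. For RSL3+ID libraries 1 to 3 it was −0.004, 0.154 and −0.093. The 9 genes had a median exon length of 3766 bases, against 4893 bases over all tested genes. After removing from each library its trend with exon length and GC, the log2 fold change was 0.49 for SELENOK (adjusted p = 0.0819), 0.46 for SELENOT (adjusted p = 0.114) and −0.03 for SELENOF (adjusted p = 0.931).

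**Figure D4:**
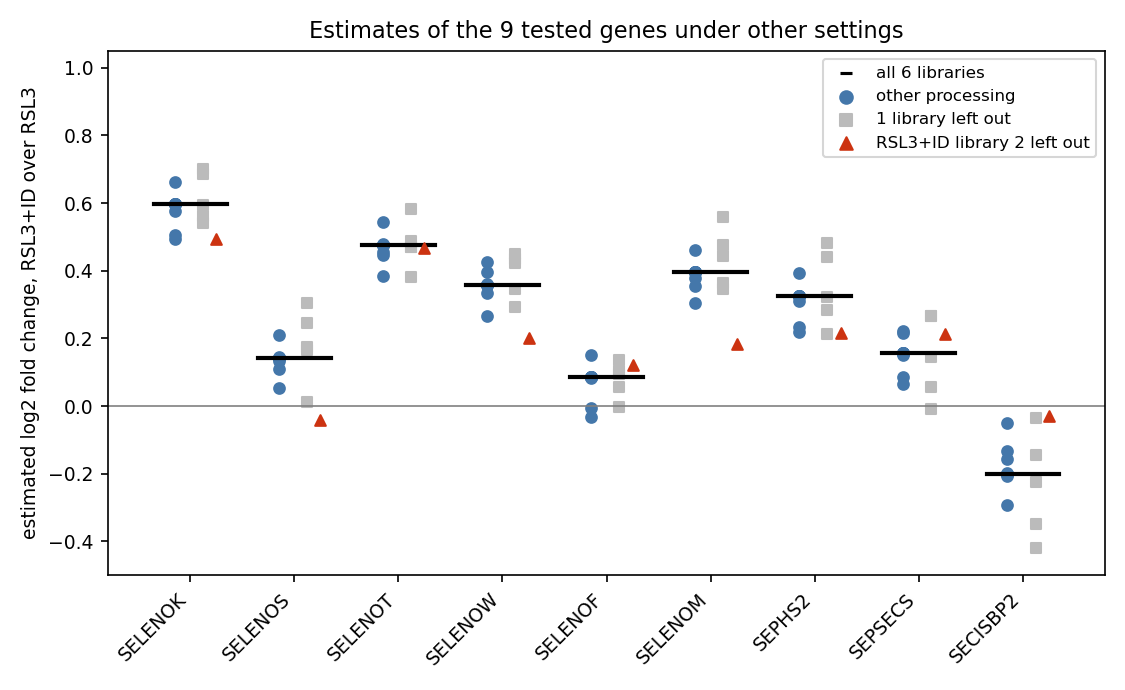
The y axis gives the estimated log2 fold change of RSL3+ID over RSL3 for each tested gene with all 6 libraries (black line), with other processing (blue circles), with 1 library left out (grey squares) and with RSL3+ID library 2 left out (red triangles). SELENOK ranges from 0.49 to 0.70 and SELENOT from 0.38 to 0.58, always above 0, while SELENOS, SELENOF and SEPSECS cross 0.

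A UGA that is read as a stop can expose a message to nonsense-mediated decay when it lies more than about 50 bases before the last exon junction. The distance from the selenocysteine codon to that junction was 5 bases in SELENOK and 13 in SELENOS, both at the end of the coding sequence shown above, and 78 in SELENOF, 135 in SELENOM, 243 in SELENOW and 470 bases in SELENOT. SEPHS2 has a single exon.

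Promoter windows of RefSeq (GRCh38.p14, 250 bases before to 50 after a start) were matched for 8 of the 10 genes, in 10 windows since SELENOF and SECISBP2 have 2 each, with SELENOM and SEPSECS not matched. The 250 bases before the start of SELENOK, chr3:53891860-53892109 on the minus strand, are shown because this gene had the smallest p of the set. Capitals mark the motifs found.
SELENOK: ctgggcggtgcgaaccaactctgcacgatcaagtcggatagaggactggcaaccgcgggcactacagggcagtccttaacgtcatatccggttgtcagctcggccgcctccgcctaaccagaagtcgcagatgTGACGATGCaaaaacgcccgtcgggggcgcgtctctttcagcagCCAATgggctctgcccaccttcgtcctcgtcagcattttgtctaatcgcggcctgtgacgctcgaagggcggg
The first motif is TGACNNNGC, the core of the antioxidant response element that NRF2 binds, and the second is CCAAT. On either strand of the 300-base windows, TGACNNNGC was in 3 of the 10 windows (of SELENOK, SELENOP and SECISBP2) and in 13.3% of all 35116 windows. CCAAT was in 5 of the 10 (of SELENOK, SELENOS, SELENOW, SELENOF and SEPHS2) and in 34.6% of all windows. None of the 10 held the ER stress element (CCAAT followed at a fixed distance by CCACG), the cyclic AMP response element TGACGTCA, the aryl hydrocarbon receptor element TNGCGTG or the TCF/LEF motif CTTTGAT, which 0.0769%, 1.85%, 5.51% and 2.62% of windows hold. CCAAT is also the first part of the ER stress element, and a match or its absence in these windows is no measure of binding.

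Processed copies are annotated in GENCODE 29 for SELENOK (3), SELENOT (2), SELENOW (1) and SEPHS2 (1). How reads that fit both a gene and a copy were counted is not given in the sources used here, so small differences in these 4 genes carry that uncertainty.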

How the data were processed

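The deposited expression table of the authors holds log2 values for 6 columns. Its form is a variance-stabilising transform with a shared lowest value of 6.04. It was inverted into counts divided by size factors. Their means were checked against the baseMean signal that the authors deposited for 894 genes, and the relative difference was at most 2.5e-14. All values lay within 0.001 of whole reads. That table also gives log2 fold changes, p-values and a Wald score, per the file headers. Per the submitters' processing notes, GRCh38 was used, with DESeq2 1.30.0, StringTie 2.1.5, HISAT2 2.2.1 and Trimmomatic 0.39. Which tool counted reads, and whether by strand, is not given in the sources used here.

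Groups follow the treatment labels. All titles read RSL3+M, and columns were assigned by name: 3 carry RSL3 alone, and 3 add a garbled word that decodes to "drug given" in Chinese. The 214 repeated entries had equal values and were dropped. Genes with a mean normalised count of at least 10 entered limma 3.58.1 on the scale log2(normalised count + 1) (R 4.3.3; trended, robust, 2-sided, Benjamini-Hochberg over all 14188 genes). This scale understates the change of low genes. The script was tested on simulated data. Intervals are at 95%. The limit of 3 reads covers counting error only. The genes and lists were chosen with earlier results of these data known. Named from the lists are GPX4, TXNRD1, SEPHS1, EEFSEC, PSTK and SECISBP2L, any gene passing the test, and the 3 with the largest absolute log2 fold change per list. GPX1 is given by its level alone and was chosen after its values were seen. Alternatives covered the pseudocount, filter, scaling, scale, voom weights, empirical Bayes step, replicate block, length and GC trend, and each library left out.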

Additional observations from a re-analysis of the deposited data

How the results depend on the processing

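Of the 9 tested genes limma called 0, and 1 (SELENOK) with no filter on low counts (adjusted p = 0.0482) or with upper-quartile scaling (log2 fold change 0.66, adjusted p = 0.0447). The fit with no filter called 1.44% of all 23059 genes, and the fit with upper-quartile scaling 2.31% of 14188. Leaving out 1 library gave 0 to 2, the 2 being SELENOK and SELENOT without RSL3+ID library 2. Over all genes 271 were called. That became 0 without a trended, robust step and 0 to 1325 with 1 library left out. The value of 1325, or 9.34% of all genes, came without RSL3+ID library 2, and omitting any other library left at most 4. Higher calls made up 153 of 271, against 90 of 307 with total count scaling and 242 of 328 with upper-quartile scaling. Of the 16 other machinery genes, 1 was called with no filter (EIF4A3) and 0 to 3 with 1 library left out. The 3 were called without RSL3+ID library 2, in the fit that called 9.34% of all genes. The range was 0 to 1 for the other selenoproteins and for the ER partners, each at 1 without RSL3+ID library 2.

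Some log2 fold changes turned sign. SELENOF was −0.0065 with total count scaling and −0.031 once the length and GC trend was taken out, and ranged from −0.0030 to 0.14 with 1 library omitted. That range was −0.042 to 0.30 for SELENOS, −0.0092 to 0.27 for SEPSECS, −0.037 to 0.043 for SEPHS1 and −0.18 to 0.21 for EEFSEC. SEPHS1 was −0.081 with total count scaling and −0.0092 once the trend was taken out, and EEFSEC 0.037 with upper-quartile scaling. The cause of these changes was not tested. Whether the column numbers pair the libraries is not known. Deviations from the group means correlated at −0.002, −0.246 and −0.180 between same-numbered libraries, and at −0.186 to 0.307 between the others. Such deviations sum to 0 within each group and carry library-wide trends, so they cannot exclude pairing. With the column numbers as a replicate block, 0 of all genes and 0 of the 9 were called. Of the 10 genes, SELENOP alone was below the filter on mean counts. SEPSECS had only 99 to 138 reads per library and the largest SE of the 9, 0.27. How far depth limits the other genes was not tested.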
